A study of Homo sapiens with 8 samples.

Results

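The ZFP36 family of mRNA decay factors and a set of immediate early genes were followed through a list of N6-methyladenosine (m6A) peaks from HCT116 cells, a human colorectal cancer line. The 10 genes are ZFP36, ZFP36L1, ZFP36L2, JUN, JUNB, JUND, FOS, FOSL1, EGR1 and IER2, and every listed peak under one of these symbols was taken. The genes were chosen by symbol from those with a listed peak, with their log2 folds and FDRs in view. This gave 24 of the 22626 peaks of the list, and each of the 10 genes had at least 1. The compared cells were shALKBH5 cells, with stable knockdown of the m6A demethylase ALKBH5 by a hairpin titled AL1, and shNC cells, which carried the control hairpin and whose genotype is labelled WT. From each arm an anti-m6A immunoprecipitate (IP) of fragmented poly(A) RNA and the unselected input were sequenced, with 2 libraries in each of the 4 groups. Both arms are 1 cell line, and the labels do not say whether the 2 libraries of a group came from separate cultures.

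The deposited values are 1 row per peak for the whole series, which leaves the values without a replicate error and the depth unknown. The authors' deposited table gives each peak an enrichment of IP over input, a log2 fold between the arms and a false discovery rate (FDR) of that fold. It does not say which arm is on top, so folds are given as positive or negative and not as a gain or a loss in shALKBH5 cells. Whether a fold follows m6A or the amount of the transcript cannot be told apart in this table. ALKBH5 had 3 peaks with log2 folds of -1.43, -0.93 and -1.25 and FDRs of 0.401, 0.465 and 0.325 in the authors' deposited table, and its transcript level was not analysed here. Of the markers fixed for this cell type, 6 of 9 colorectal epithelial genes had a listed peak, against 0 of 4 leukocyte genes and 1 of 5 fibroblast genes (COL1A1).

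Immediate early genes are transcribed within minutes of a growth factor or stress signal, without new protein synthesis, and their mRNAs are short-lived. Many of these mRNAs carry AU-rich elements near their 3′ end, which ZFP36 proteins bind through paired CCCH zinc fingers before recruiting deadenylases. The ZFP36 genes are themselves induced by the same signals. JUN and FOS proteins pair through leucine zippers to form the transcription factor AP-1, EGR1 is a zinc finger transcription factor, and IER2 is a nuclear protein induced with them. m6A is laid down co-transcriptionally, often in long exons and near stop codons, and is bound by reader proteins that can shorten the life of an mRNA.

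Most peaks of these genes that passed had negative folds. Of the 24, 13 passed an FDR of 0.05 in the authors' deposited table, 10 with a negative and 3 with a positive fold, against 8.23% of all peaks (2.49% negative and 5.74% positive). The 10 negative peaks lay on 7 genes (ZFP36, ZFP36L1, JUN, JUNB, JUND, FOS and EGR1), and the 3 positive peaks on ZFP36L1 and JUN. By gene, 7 of 10 had a negative and 2 a positive peak that passed, where 4.49% and 9.92% of all genes with a symbol did. ZFP36L2, FOSL1 and IER2 had no peak past that FDR. The median log2 fold of the 24 peaks was -0.21, with a range of -1.37 to 1.85, and that of all peaks was 0.14. Relative to that shift of 0.14, 16 of the 24 folds were below and 8 above it. With folds recentred on it and p read as one-sided, a version added after seeing the data, 10 of the 24 peaks passed as negative and 1 as positive, against 3.69% and 4.18% of all peaks. With p read as two-sided it was 11 and 1, against 4.0% and 4.04%. In both versions the positive peak of JUN and the 3′ peak of ZFP36L1 no longer passed. At an unadjusted p of 0.05, 14 of the 24 passed, against 19.9% of all peaks. The genes were chosen with earlier results of this list known, so these counts describe them and test nothing.

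**Figure D1:**
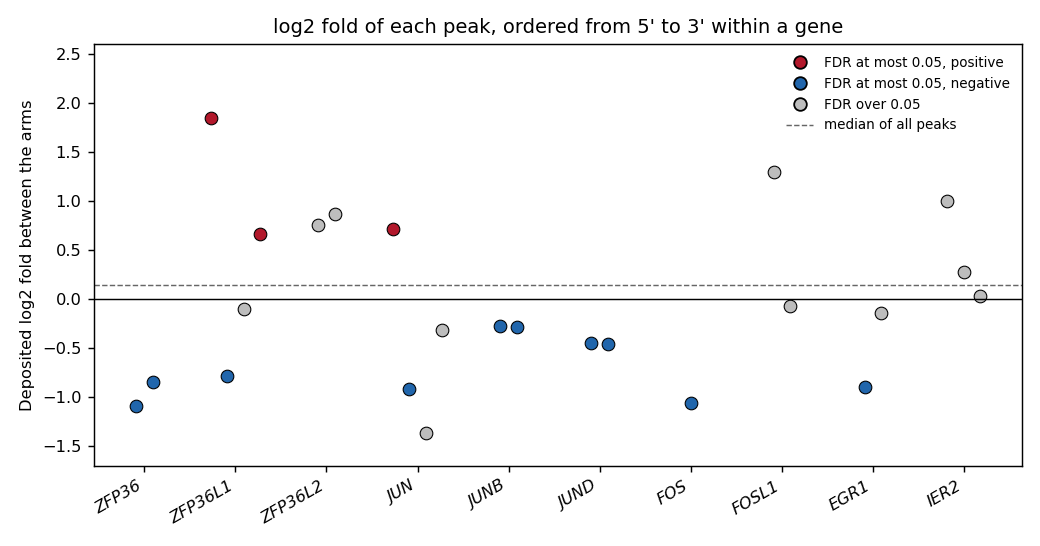
Deposited log2 fold between the arms (y axis) of each of the 24 peaks, by gene (x axis), ordered from the 5′ to the 3′ peak within a gene. Blue and red points passed an FDR of 0.05 with a negative (10 peaks) or positive (3 peaks) fold, grey points did not, and the dashed line is the median of all peaks (0.14). All peaks of ZFP36, JUNB, JUND and FOS are blue.

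Most peaks of these genes were strong by the p of the peak, though not by enrichment, which is given further below. With all peaks split into 5 equal classes by the authors' p of the peak itself, 18 of the 24 were in the most significant class, and 12 of those 18 passed the FDR of the difference. In that class 21.8% of all peaks passed, 6.08% with a negative and 15.7% with a positive fold. Of the other 6 peaks of these genes, 1 passed, the 5′ peak of ZFP36L1. The share that passed among all peaks was 0.99%, 2.28%, 5.1%, 10.96% and 21.8% from the weakest to the strongest class. The part of peak strength in the count of these genes was not tested.

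**Figure D2:**
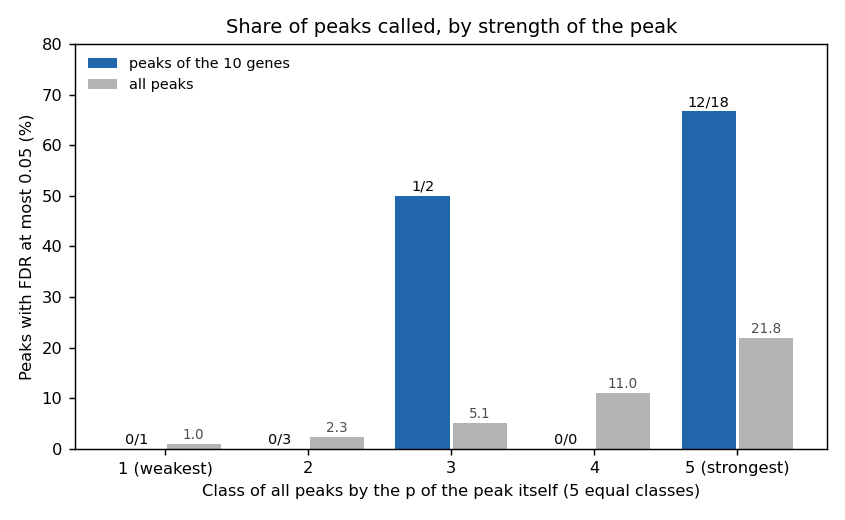
Percentage of peaks with an FDR of the difference of at most 0.05 (y axis) in 5 equal classes of all peaks by the p of the peak itself (x axis), for peaks of the 10 genes (blue, with counts passed over present) and all peaks (grey). No peak of the 10 genes is in class 4, and 12 of 18 in the strongest class passed, against 21.8% of all peaks there.

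ZFP36, which encodes tristetraprolin, the founding member of the family, had 2 peaks, both with negative folds. In the authors' deposited table the 5′ peak of ZFP36 had a log2 fold of -1.09, a 2.13-fold difference between the arms, at a log10 FDR of -73.4. The 3′ peak of ZFP36 had -0.85 at a log10 FDR of -14.9 in the authors' deposited table. The first of these had the smallest p of the difference among the 9841 peaks with a negative fold, and it ranked 18 among all 22626. On GRCh38 the peaks cover positions 39407886 to 39408245 and 39408514 to 39408903 of chromosome 19, on the plus strand, and their centres lie 1342 and 699 bases before the annotated 3′ end. Enrichment was low at 3.37-fold and 5.62-fold in the authors' deposited table, or percentiles 13.4 and 28.8 of the list. Each had strong support as a peak, with log10 p of -588 and -108 in the authors' deposited table.

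ZFP36L1 (also TIS11B or BRF1), a paralogue that acts on AU-rich mRNAs in many epithelial and blood cells, had 4 peaks whose signs changed along the gene. From the 5′ to the 3′ peak the authors' deposited table has 1.85, -0.79, -0.10 and 0.67 as log2 folds. FDRs were 0.000234, 2.14e-09, 0.658 and 0.0468 in the same order, so 2 positive peaks and 1 negative peak passed. The negative one spans 2 exon blocks of 1033 and 47 bases between 68789460 and 68791029 of chromosome 14, on the minus strand. The 3′ peak (68787660 to 68788170) ends 5 bases before the annotated 3′ end of the gene. It passed narrowly and no longer did once p was doubled, for the case that it is one-sided (adjusted value 0.094). The 5′ peak (68792907 to 68793147) was the weakest ZFP36L1 peak, with a log10 p of -8.18 and an enrichment of 3.59-fold in the authors' deposited table. It had the highest fold of all 24 peaks, a 3.6-fold difference between the arms.

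RefSeq places 2 starts on ZFP36L1, and the 5′ peak begins 269 bases downstream of the inner one and 3096 bases downstream of the outer one. The window from 250 bases before to 50 bases after the inner start (RefSeq, GRCh38.p14, chr14:68793367-68793666, minus strand) is printed because the peak with that highest fold lies just downstream of it. Capitals mark the cyclic AMP response element TGACGTCA.
ZFP36L1: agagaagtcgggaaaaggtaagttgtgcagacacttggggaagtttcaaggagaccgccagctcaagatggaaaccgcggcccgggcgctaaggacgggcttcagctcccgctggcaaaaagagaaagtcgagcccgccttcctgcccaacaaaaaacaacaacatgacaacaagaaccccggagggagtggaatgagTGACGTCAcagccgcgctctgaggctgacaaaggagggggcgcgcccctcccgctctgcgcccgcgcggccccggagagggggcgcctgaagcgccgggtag

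ZFP36L2 (TIS11D), the other paralogue, had 2 peaks with positive folds that did not pass. The authors' deposited table gives 0.75 (FDR 0.366) for the peak at 43223742 to 43224427 of chromosome 2 and 0.86 (FDR 0.45) for the one at 43222491 to 43222730, on the minus strand. The 5′ of the pair had the highest enrichment among the 24 peaks, 36.8-fold in the authors' deposited table. The other shares 211 bases with a peak of an unnamed gene on the opposite strand, whose fold was 1.02 (FDR 0.407) in the authors' deposited table, so its reads may belong to either. Within the family, the 2 peaks of ZFP36 and 1 of ZFP36L1 were thus negative past the FDR, while no negative fold was listed for ZFP36L2. Whether the 3 genes differ was not tested.

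**Figure D3:**
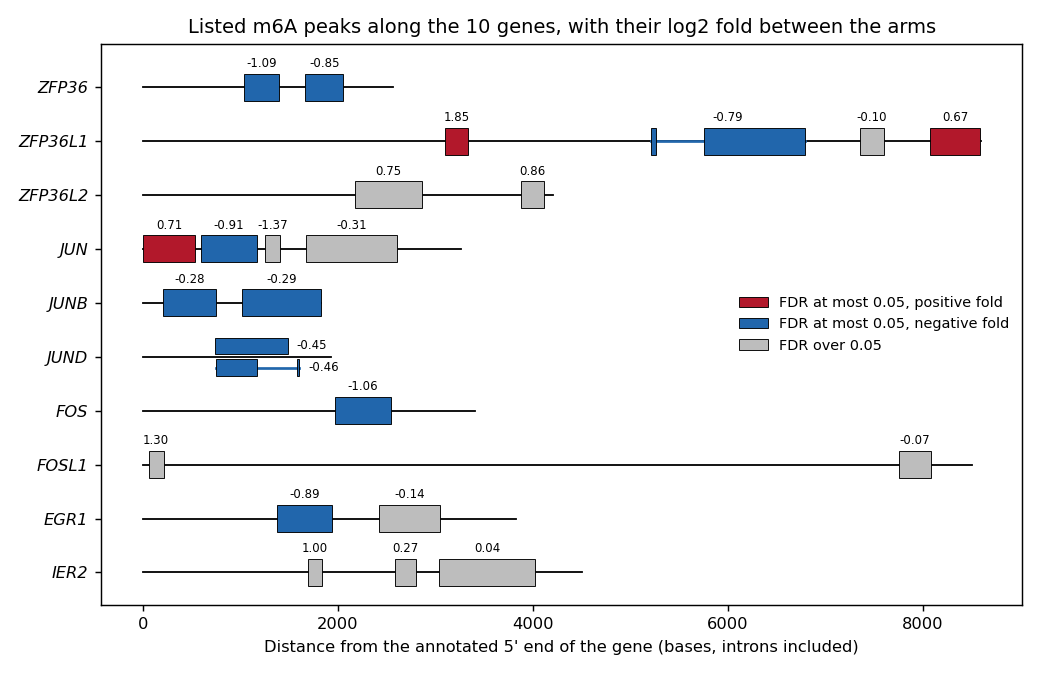
Map of the 24 peaks along the 10 genes, with distance from the annotated 5′ end in bases on the x axis (introns included) and 1 line per gene. Boxes are exon blocks of peaks, joined by a thin line where a peak has 2, blue or red where the FDR was at most 0.05 with a negative or positive fold and grey otherwise, and each number is the deposited log2 fold. The 5′ peaks of JUN and ZFP36L1 are red and the next peak of each is blue.

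JUN, the intronless gene of the AP-1 subunit c-Jun, was covered by 4 peaks over 67.2% of its 3257 bases, and its folds also changed sign along the transcript. From the 5′ to the 3′ peak the authors' deposited table has log2 folds of 0.71, -0.91, -1.37 and -0.31. The first (58783509 to 58784048 of chromosome 1, minus strand) passed at an FDR of 0.0372 and the second (58782880 to 58783449) at 2.04e-05 in the authors' deposited table. Their near edges are separated by 59 bases, and the 2 values differ by 1.62 on the log2 scale. The first lost its call with p doubled (adjusted value 0.0748), and the second kept it (4.07e-05). The third peak is 150 bases long and weak, with a log10 p as a peak of -3.94 and an enrichment of 2.71-fold in the authors' deposited table. Its FDR was 0.211. The 3′ peak of JUN, 929 bases long, was the most enriched of the 4 at 27.3-fold in the authors' deposited table, and its FDR was 0.355.

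The 5′ peak of JUN begins at the annotated start of the transcript. The promoter window of JUN (RefSeq, GRCh38.p14, chr1:58783998-58784297, minus strand) is shown for that reason, with capitals for the 51 bases that the peak covers, of which 1 is upstream of the annotated start.
JUN: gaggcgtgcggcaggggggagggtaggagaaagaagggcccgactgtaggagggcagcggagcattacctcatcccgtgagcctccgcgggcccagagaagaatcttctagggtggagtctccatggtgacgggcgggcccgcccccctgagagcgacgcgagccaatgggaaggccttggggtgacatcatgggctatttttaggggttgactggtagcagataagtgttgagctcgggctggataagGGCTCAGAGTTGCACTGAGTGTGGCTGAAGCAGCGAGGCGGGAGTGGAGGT

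JUNB and JUND, the paralogues of JUN, had negative folds of modest size in every peak. In the authors' deposited table the 2 peaks of JUNB had log2 folds of -0.28 (FDR 0.0055) and -0.29 (FDR 0.000186), differences of 1.21-fold and 1.22-fold between the arms. They cover 12791696 to 12792236 and 12792505 to 12793315 of chromosome 19, on the plus strand, which is 73.9% of the 1830 bases of the gene. The 3′ peak of JUNB shares 78 bases with a peak of HOOK2, which encodes a microtubule linker protein, on the opposite strand. That HOOK2 peak stood at -0.39 (FDR 0.337) in the authors' deposited table. JUND, whose product often restrains growth where c-Jun drives it, is listed with 2 peaks that share 415 bases and amount to 1 measurement. Their folds in the authors' deposited table were -0.45 and -0.46, with FDRs of 5.25e-07 and 5.62e-06. They lie between 18280019 and 18280880 of chromosome 19, on the minus strand, and their enrichments of 3.36-fold and 3.29-fold in the authors' deposited table were at the percentiles 13.4 and 12.9 of the list. Counted once, JUND leaves 12 peaks of the 10 genes past the FDR, 9 of them negative.

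FOS, the classical partner of c-Jun in AP-1, had 1 peak, and FOSL1, which encodes the FOS-related protein FRA1 found at high level in many carcinomas, had 2. The FOS peak (75280801 to 75281367 of chromosome 14, plus strand) had a log2 fold of -1.06 in the authors' deposited table, with an FDR of 0.00186 and a 6.12-fold enrichment. Its centre is 1146 bases before the annotated 3′ end. Neither peak of FOSL1 passed. Its 3′ peak (65892468 to 65892797 of chromosome 11, minus strand) stood at -0.07 (FDR 0.578) in the authors' deposited table, while its 5′ peak (65900334 to 65900483) had 1.30 (FDR 0.31). The 5′ peak of FOSL1 was the weakest of the 24, with a log10 p of -3.21, and its 3′ peak was the least enriched, at 2.28-fold, in the authors' deposited table. Over the 5 AP-1 genes together, 7 of 11 peaks passed, 6 of them negative, with a median log2 fold of -0.31. Both overlapping JUND peaks are in these counts. Over all peaks of the list 8.23% passed, 2.49% with a negative fold. In the most significant class of peaks, which holds 9 of the 11, it was 21.8% and 6.08% of all peaks.

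EGR1, a zinc finger factor that serum response factor (SRF) switches on, had 2 peaks of about equal strength and unequal fold. The authors' deposited table gives the 5′ one (138466854 to 138467421 of chromosome 5, plus strand) a log2 fold of -0.89 at a log10 FDR of -15.1. For the 3′ one (138467899 to 138468526) the authors' deposited table gives -0.14 at an FDR of 0.452. Their enrichments were 4.70-fold and 5.78-fold and their log10 p as peaks -214 and -172 in the authors' deposited table, so the one that did not pass was not a weak peak. IER2 had 3 peaks with folds of 1.0, 0.27 and 0.04 from the 5′ to the 3′ end in the authors' deposited table, and FDRs of 0.673, 0.415 and 0.612. The 3′ peak of IER2 (13153447 to 13154433 of chromosome 19, plus strand) was the most significant as a peak among the 24, with a log10 p of -1000 and an enrichment of 15.2-fold in the authors' deposited table. It shares 621 bases with a peak of an unnamed gene on the opposite strand, whose fold was -0.10 (FDR 0.548) in the authors' deposited table. The middle IER2 peak shares 119 bases with another peak of that gene.

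Promoter windows of 300 bases (RefSeq, GRCh38.p14) were found for 8 of the 10 genes, 9 windows in all, and not for FOSL1 and ZFP36L2. Each runs from 250 bases before to 50 bases after a start, so sites further upstream were not searched. The windows were searched on both strands for the CArG box bound by SRF, the cyclic AMP response element TGACGTCA, the AP-1 element TGACTCA and the TATA box core TATAA. Among these windows only that of EGR1 held the CArG box, in 2 places starting 105 and 83 bases before the annotated start, where 1.29% of 35116 windows hold one. TGACGTCA stood in 2 of the 9 windows, those of JUND and the inner start of ZFP36L1 (1.85% of all windows), and TGACTCA in 0 of 9 (4.95%). TATAA was in 4 of the 9, those of FOS, JUNB, JUND and ZFP36, against 20.4% of all windows, and in FOS it overlaps a match on the other strand. The sequences of EGR1 (chr5:138465229-138465528, plus strand) and JUND (chr19:18281573-18281872, minus strand) are shown for these sites, in capitals, since both genes had peaks with negative folds past the FDR. Only exact matches to these patterns were counted, so variants of the elements, in these or the other windows, were not searched. A match is not evidence of binding in HCT116 cells.
EGR1: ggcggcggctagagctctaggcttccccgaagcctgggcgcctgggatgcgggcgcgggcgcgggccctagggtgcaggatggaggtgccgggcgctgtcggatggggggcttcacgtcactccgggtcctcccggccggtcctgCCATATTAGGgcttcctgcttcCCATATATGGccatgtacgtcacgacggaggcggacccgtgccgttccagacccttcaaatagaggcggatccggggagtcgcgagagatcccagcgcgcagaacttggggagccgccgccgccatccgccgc
JUND: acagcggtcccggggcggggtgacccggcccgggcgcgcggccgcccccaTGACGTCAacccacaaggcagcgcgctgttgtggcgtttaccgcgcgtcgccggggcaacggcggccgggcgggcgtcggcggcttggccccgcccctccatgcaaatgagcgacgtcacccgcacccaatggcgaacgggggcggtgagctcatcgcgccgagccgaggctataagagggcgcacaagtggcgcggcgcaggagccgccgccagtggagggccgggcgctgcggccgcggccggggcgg

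The peaks of these genes were modestly enriched, and longer than those of the whole list but not than other strong peaks. Their median exonic length was 526 bases (150 to 1080), against 300 bases over all peaks. In the most significant class the median length was 568 bases for the 18 peaks of these genes and 571 bases for all peaks. Median enrichment was 5.55-fold for the 24 peaks (2.28 to 36.8) and 10.1-fold for all peaks, and 19 of the 24 were under 10.1-fold. In that class it was 5.82-fold for the 18 peaks of these genes and 14.1-fold for all. The 10 peaks with negative folds past the FDR lay between 3.29-fold and 10.8-fold, and the 4 most enriched peaks of the set (1 of ZFP36L2, 1 of JUN and 2 of IER2) did not pass. Low enrichment of passing peaks was not particular to these genes. Over the 1862 passing peaks of the list the median was 5.93-fold, and 1268 of them were under 10.1-fold. For the passing peaks of the list with negative folds the median was 6.715-fold.

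**Figure D4:**
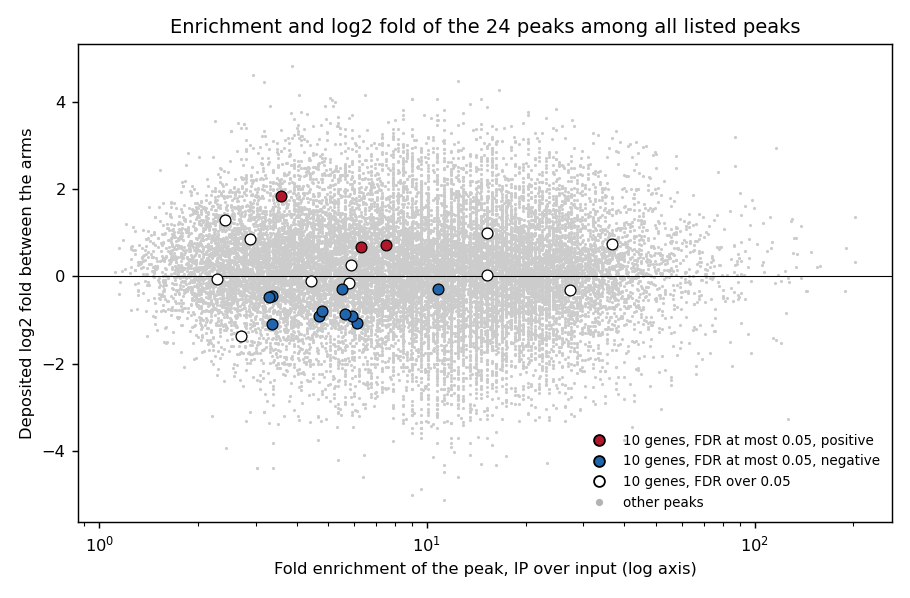
Fold enrichment of IP over input (x axis, log scale) and deposited log2 fold between the arms (y axis) for all listed peaks (grey dots) and the 24 peaks of the 10 genes (circles: blue or red at an FDR of at most 0.05 with a negative or positive fold, white otherwise). Blue circles sit between 3.29-fold and 10.8-fold, and those beyond 15-fold are white.

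The genes themselves are short. By the RefSeq annotation they span 1830 to 8589 bases with a median of 3614, against a median of 28797 bases over 10498 genes with a matched peak. Listed peaks covered a median of 29.6% of their span, from 5.6% in FOSL1 to 73.9% in JUNB. Over all genes with a matched peak the median was 2.15%, and 13.9% over those no longer than 8589 bases. Of the 24 peaks 8 (33.3%) were centred within 1000 bases of the annotated 3′ end, against 20.1% of 20328 matched peaks of the list. Within 500 bases it was 3 of the 24, against 11.1%. A stretch of 1000 bases is a larger part of a short gene, and peaks of genes of like length were not compared. Of the negative peaks past the FDR, 4 of 10 were centred in the last 1000 bases, both overlapping JUND peaks among them. Over all matched peaks of the list that passed with a negative fold it was 27.3%. A peak of more than 1 exon block was seen for 2 of the 24 (8.3%), against 30.4% of all peaks. They were 1 of ZFP36L1 and 1 of JUND, the latter with blocks of 26 and 415 bases. The 4 peaks of JUN, which has no intron, could not have more than 1 block. Genes with a like number of exons were not compared, so this gap may reflect gene structure. Among genes with at least 2 listed peaks past the FDR, 2 of 5 of this set (JUN and ZFP36L1) had both signs, against 26.6% of 173 genes of the list. With the JUND peaks counted once it was 2 of 4, and with p doubled as well 1 of 3, ZFP36L1. The share over the genes of the list was not taken under those rules.

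Other immediate early genes carried passing peaks of both signs. Of 48 listed, 44 had a peak, and 20 of their 95 peaks (21.05%) passed, against 8.14% of all peaks with a symbol. Of these, 11 were positive, on 8 genes, and 9 negative, on 7. Over all peaks, 5.74% passed with a positive and 2.49% with a negative fold. The median log2 fold of this list was 0.11. By the smallest FDR the leading genes were TRIB1, a pseudokinase adaptor of ubiquitin ligation (0.92), and NR4A1, an orphan nuclear receptor (-1.41), in the authors' deposited table. AREG, the EGF receptor ligand amphiregulin (1.08), and PHLDA1 (0.77) followed there. NR4A1 thus stood with FOS, ZFP36 and EGR1 in sign, and TRIB1, AREG and PHLDA1 did not. The PHLDA1 peak overlaps another listed peak. Among dimer partners and regulators of AP-1, 2 of 29 peaks on 15 genes passed (6.9%, near the 8.14% of all peaks with a symbol), both positive and both on the stress factor gene ATF4, the stronger at 0.77 in the authors' deposited table. The median fold of that list was 0.08.

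Lists around mRNA decay and signalling are read against the 8.14% of all peaks with a symbol that passed. Of 55 peaks on 27 genes of the CCR4-NOT, decapping and exonuclease machinery 1 passed (1.82%), on the antiproliferative adaptor gene TOB1, at 0.49 (FDR 0.0302) in the authors' deposited table, and it did not with p doubled. Other AU-rich element binding proteins had 6 of 34 peaks past the FDR on 14 genes, 3 of each sign, with a median log2 fold of 0.36. These included YBX1 at 1.10 and the decay factor gene KHSRP at 1.26 in the authors' deposited table. KHSRP also had a passing peak with a negative fold. HNRNPD, which encodes AUF1, stood at 1.39 and PCBP1 at -0.41 in the authors' deposited table. The PCBP1 peak overlaps another listed peak and did not pass with p doubled. Upstream of the immediate early genes, 3 of 40 peaks on 20 genes of SRF and MAP kinase signalling passed (7.5%), close to that share. They were SRF itself at 1.54, its coactivator gene MRTFA at -1.45 and the kinase gene MAP2K2 at -0.95 in the authors' deposited table. Among mRNAs described as ZFP36 targets, 6 of 35 peaks on 16 genes passed, 2 positive and 4 negative. For each gene the passing peak with the smallest FDR is given. The cyclin gene CCND1 stood at 0.71 and IER3 at -0.14 in the authors' deposited table. There the urokinase gene PLAU stood at 1.79 and MYC at -0.47. CCND1 also had a passing peak with a negative fold. These peaks of IER3 and PLAU overlap other listed peaks, and MYC did not pass with p doubled. The target list and the list of immediate early genes share 4 genes.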

How the data were processed

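HCT116 shALKBH5 and shNC cells gave 8 libraries, IP and input, 2 per group, grouped by their titles. BWA 0.7.12 and HOMER 4.9.1 are named, without their roles, in the submitters' processing notes, as is GRCh38. The peak caller was not given in the sources used here. Deposited is 1 peak list. Per the file headers, each peak has the authors' p-value, directly and as a log10 score, the enrichment is a linear fold ratio, and the difference has a log2 fold with p and FDR as log10 scores. The number of exon blocks is also deposited.

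From these, FDRs were converted from log10, peaks were placed on the RefSeq gene table (GRCh38.p14, by symbol and chromosome, 20328 peaks, 89.8%), and overlaps of at least 1 base were found, in Python 3.11.15 with pandas 2.3.3. Coordinates are 1-based. A peak passed at an FDR of at most 0.05. No test across libraries was run, since values per library were not analysed here, and the depth is unknown. Whether the deposited p is one-sided is not stated, so p doubled and adjusted again over all 22626 peaks (Benjamini-Hochberg, checked on simulated data) was an alternative. All peaks of the 10 genes are named, and up to 4 genes per other list, by smallest FDR. Members, lists and tests were chosen with earlier results of these data known. COL1A1 was named after its listing was seen, and HOOK2 for an overlap. Sequences of the peaks were not used here.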

Additional observations from a re-analysis of the deposited data

How the results depend on the processing

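Of the 13 peaks past the FDR, the 10 negative ones passed under an FDR of 0.01, p doubled and folds recentred with p read as one-sided. The 3 positive ones did not: 1, the 5′ peak of ZFP36L1, passed under an FDR of 0.01, with p doubled, with folds recentred (p read as one-sided or two-sided) and with a log2 fold of at least 1 in size. That minimum fold left 3 peaks in all, the other 2 negative (ZFP36 and FOS), since it removes smaller folds by construction. Of all 22626 peaks, 1128 passed at an FDR of 0.01, 307 of them negative, and 1438 with p doubled, 403 of them negative. Recentring with p read as two-sided added the 3′ peak of FOSL1 as an 11th negative one. Its log2 fold was -0.07, with a log10 p of -0.543 and an FDR of 0.578 in the authors' deposited table. For recentring, the standard error of a peak was derived from its deposited fold and p, and only peaks with p below 0.3 could pass. That call thus rests on a standard error taken from a fold and p near no difference. Within 500 bases of the 3′ end lay 3 peaks in place of 8 (11.1% of all matched peaks), and 12 had their near edge within 1000 bases (25.6% of all). In the lists, an FDR of 0.01 left 3 of 6 peaks of AU-rich element binding proteins, 1 of 3 of SRF and MAP kinase signalling and 0 of 1 of the decay machinery, which also had 0 with p doubled. With 1 peak per gene the median log2 fold was -0.38 in place of -0.21. No paired analysis was possible because the columns hold 1 comparison and no values per library, and for the same reason no replicate was left out in turn. The number of reads behind each peak, which limits how small a fold can pass, is unknown. The deposited p can be extreme at small folds, and whether replicate spread entered it is not stated.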
